A study of Mus musculus with 2 samples.

Results

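Classic astrocyte genes are 10 genes that are widely used to recognise astroglia, namely *Gfap*, *Vim*, *Nes*, *S100b*, *Slc1a3*, *Slc1a2*, *Glul*, *Aldoc*, *Aldh1l1* and *Aqp4*. They were chosen by name, with no measured value in the rule, from the 27998 genes counted in each library, of which 16258 had a UMI in a kept cell. A UMI (unique molecular identifier) tags 1 captured mRNA molecule, and levels are given as CPM, the UMIs of a gene per 1e6 UMIs of the cells. The genes were followed through the neurohypophysis (NH), the posterior lobe of the pituitary, in C57BL/6 male mice of 3 months of age. The tissue was dissected without treatment, and 2 pools of 5 mice each were dissociated with Liberase TM and papain and sequenced as single cells. Both pools are replicates of 1 condition, the animals within a pool cannot be told apart, and all differences are therefore between cell types. Of the cells within the limits of the study, 273 came from pool 1 and 255 from pool 2. The authors sorted these 528 cells into 11 clusters, which make 7 types.

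Astrocytes are the glia that wrap synapses and blood vessels in the brain. Their intermediate filaments hold GFAP, vimentin and, in immature or reactive cells, nestin. Their plasma membrane carries the glutamate transporters GLAST, encoded by *Slc1a3*, and GLT-1, encoded by *Slc1a2*, and the glutamate that enters is turned into glutamine by glutamine synthetase, encoded by *Glul*. Aquaporin 4, encoded by *Aqp4*, is the water channel of the end-feet on vessels. *S100b* encodes a calcium-binding protein, *Aldoc* the brain form of the glycolytic enzyme aldolase, and *Aldh1l1* a folate enzyme used as a marker of astrocytes throughout the brain. Pituicytes are the resident glia of the NH. They surround the axon terminals that release oxytocin and vasopressin into fenestrated capillaries.

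The pituicytes were 196 cells, 108 in pool 1 and 88 in pool 2, with 489135 UMIs in all. They held 235655 of the 699676 UMIs of kept cells in pool 1 and 253480 of the 726706 in pool 2. The pituicyte share of the UMIs of a gene is to be read against these. The 8 pituicyte markers *Rax*, *Col25a1*, *Scn7a*, *Srebf1*, *Adm*, *Col13a1*, *Gja1* and *Vegfa* summed to 7193 and 7472 CPM in the 2 pools of pituicytes. In any pool of another type they summed to at most 662.3 CPM. The paper selected *Rax*, *Col25a1*, *Scn7a*, *Srebf1*, *Adm* and *Col13a1* from these same data, and used *Vegfa* and *Gja1* to define the type. These sums therefore describe the cluster and do not test its name. No UMI of 6 pericyte and smooth muscle markers was found in pituicytes, but markers of other types were. The largest sums were 1800 UMIs of 7 intermediate lobe markers, 322 of 6 neuron markers and 220 of 6 endothelial markers. The intermediate lobe markers were at 3247 to 4146 CPM in the pools of pituicytes, against 880.4 to 1297 CPM in those of macrophages. The other types were 148 cells of the intermediate lobe (IL), 95 macrophages or microglia, 42 T-cell like cells, 23 epithelial-like cells and 13 vascular endothelial cells. The deposited table heads the IL cells neural progenitor a and b and the epithelial-like cells epithelial/adenine-like. Its clusters were matched here to the types named in the paper. Last came 11 cells of the cluster named VLMC (vascular and leptomeningeal cells), which the deposited table heads OPC/LVMC. Markers of the last name were absent from some of its cells, as described for *S100b*. The UMI sums per pool and type ran from 8491 to 281271, so that a level of 0 says least for VLMC and endothelia. Free RNA in the droplets was estimated to give 6.10% (pool 1) and 5.19% (pool 2) of all UMIs. These shares were set from *Pomc* in immune cells and applied to every type, and whether they hold for pituicytes was not tested.

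The 10 genes together had 760 UMIs in pituicytes, of which *Slc1a3* and *Aldoc* made 81.1%. *Slc1a3* was found in 143 pituicytes, *Aldoc* in 97, *Slc1a2* in 35, *Vim* in 28, *Glul* in 25, *Nes* in 16, *Gfap* in 6, *Aldh1l1* in 4 and *Aqp4* in 2. *S100b* was found in none of the 196. Of these cells, 17 had no UMI of any of the 10 genes, 63 had 1 of the genes, 69 had 2, 35 had 3, 10 had 4, and 2 cells had 5. Depth moved with these numbers, since the cells with none had a median of 1592 UMIs and those with 4 or 5 genes 3753.5 UMIs. When every cell was thinned to 1000 UMIs, 25% of pituicytes had none of the genes and no cell had more than 3.

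**Figure D1:**
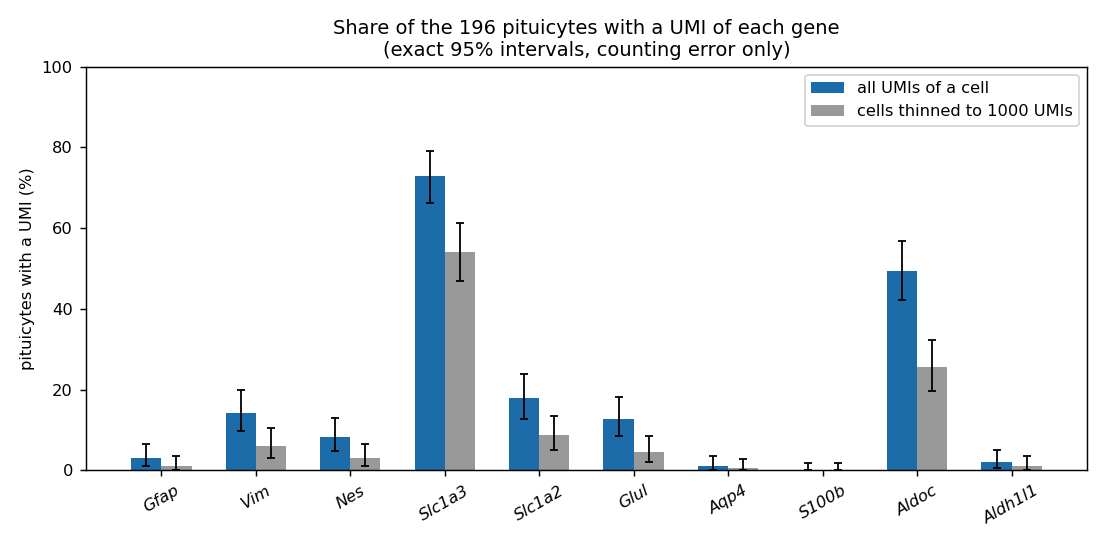
Percent of the 196 pituicytes with at least 1 UMI of each gene (y axis), for all UMIs of a cell (blue) and after each cell was thinned to 1000 UMIs (grey), with exact 95% intervals that cover counting error only. *Slc1a3* reached 73.0% and *Aldoc* 49.5%, while *Gfap*, *Aldh1l1* and *Aqp4* stayed under 4% and *S100b* at 0.

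The plot of the shares of pituicytes shows these steps. *Slc1a3* had a UMI in 73.0% of pituicytes (Clopper-Pearson 95% interval 66.2 to 79.0), *Aldoc* in 49.5% (42.3 to 56.7), *Slc1a2* in 17.9% (12.8 to 23.9), *Vim* in 14.3% (9.71 to 20.0) and *Glul* in 12.8% (8.43 to 18.3). Shares fell with thinning, to 54.1% for *Slc1a3* and 25.5% for *Aldoc*. Below them, *Nes* was found in 8.16% of pituicytes (4.74 to 12.9), *Gfap* in 3.06% (1.13 to 6.54), *Aldh1l1* in 2.04% (0.559 to 5.14) and *Aqp4* in 1.02% (0.124 to 3.64). For *S100b*, 0 of 196 cells allows a share of up to 1.53% by the limit of 3 counts, and the exact interval ends at 1.86%. Intervals and limits cover counting error only, and a limit of this kind bounds cells with a UMI, not cells that express the gene.

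To ask which of the genes set pituicytes apart, counts summed per pool and type were fitted with edgeR, and pituicytes were set against the average of the remaining 6 types. *Slc1a3*, *Slc1a2* and *Aldoc* were higher in pituicytes, *Glul* was lower, and *Vim* and *Nes* did not pass the test. *S100b* was not called either, but this contrast could not have called it, as described with that gene. A gene was called where its adjusted p did not exceed 0.05 and its difference reached 1 on the natural log (ln) scale. Among all 4510 genes tested, 12.1% were called higher and 1.4% lower by this rule. The other 3 members, *Gfap*, *Aqp4* and *Aldh1l1*, had too few UMIs to pass the filter on low counts. The filter asked for 87.7 CPM in 2 of the 14 sums, which *S100b* reached in VLMC alone, *Nes* in endothelia alone, and *Slc1a2* in 1 sum of pituicytes and 1 of VLMC. The median ln difference of the 7 members tested was 1.54 and that of all genes tested 0.25. With the pooled count of each type set to at least 3 UMIs, these medians were -0.14 and -0.25. Fitted differences from types without a UMI depend on the prior count of edgeR. The floor of 3 UMIs also imposes levels, 127.2 CPM in VLMC and 125.9 CPM in endothelia, where *Nes* in pituicytes was at 34.8 CPM. Both medians thus depend on a setting, and neither corrects the other. The authors built the clusters from the same cells and genes, so that these p-values are not independent of the types. They rest on a spread between the 2 pools that the fit shared over genes and types. A small p is therefore no measure of how closely the 2 pools repeat for a single gene. The SE printed beside a difference was computed from that difference and its test statistic.

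**Figure D2:**
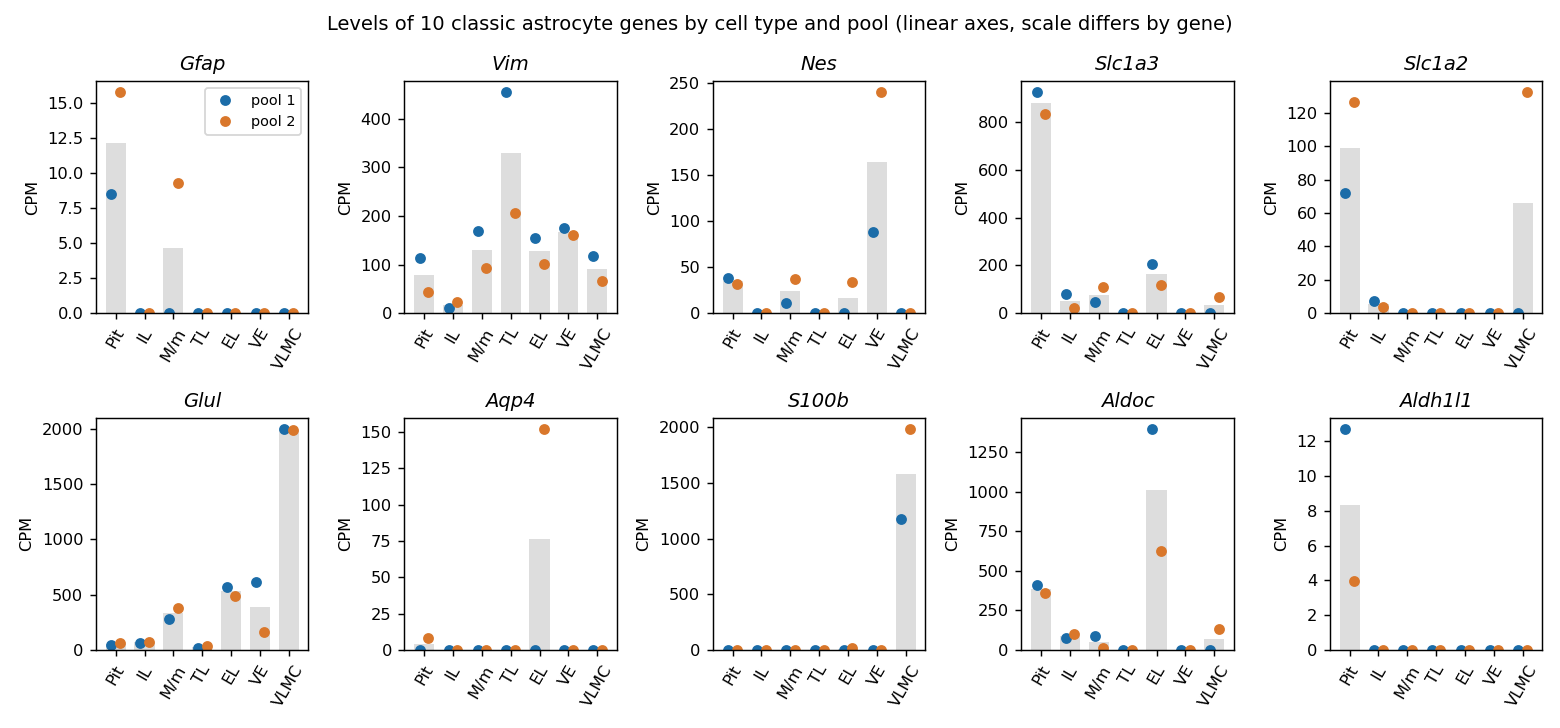
Level of each gene in CPM (y axes, linear, scaled per gene) in pituicytes (Pit), IL cells (IL), macrophages or microglia (M/m), T-cell like cells (TL), epithelial-like cells (EL), vascular endothelia (VE) and VLMC, with 1 point per pool and a grey bar at the mean of the 2 pools. *Slc1a3* stood highest in pituicytes in both pools, *Glul* and *S100b* in VLMC, and *Aldoc* in epithelial-like cells.

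Among the glutamate transporters, *Slc1a3* (chromosome 15, 8634124 to 8710764, minus strand, GRCm38) was at 925.1 CPM in pool 1 and 832.4 CPM in pool 2 of pituicytes. The plot of levels by type shows that both pools lay above every other type. Pituicytes held 88.5% of the 485 *Slc1a3* UMIs of all kept cells. Epithelial-like cells followed with 207.1 and 118.4 CPM, then macrophages with 45.1 and 111.2 CPM and IL cells with 81.8 and 20.0 CPM, and macrophages and IL cells overlapped while both pools of epithelial-like cells lay above them. VLMC had 1 UMI, in pool 2, and T-cell like cells and endothelia had none. The difference from the mean of the other types was 3.86 ± 0.30 on the ln scale (SE, adjusted p = 2.18e-36), and 4.45 in pool 1 alone and 3.87 in pool 2 alone.

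*Slc1a3* was also called higher against each of the 6 types taken singly. The share of all genes called higher in the same contrast was 10.8% for IL cells, 16.4% for macrophages, 14.9% for T-cell like cells, 2.9% for epithelial-like cells, 1.91% for endothelia and 1.18% for VLMC. These shares depend on the scaling, and with TMM normalization the calls higher and lower went from 86 and 250 genes to 313 and 157 against endothelia, from 53 and 125 to 179 and 97 against VLMC, and from 131 and 258 to 176 and 189 against epithelial-like cells. Pooled levels were 6.25-fold those of epithelial-like cells (adjusted p = 3.21e-06), 10.8-fold those of macrophages (2.32e-14 as adjusted p) and 16.6-fold those of IL cells (1.08e-23 as adjusted p). The ln difference from IL cells was 2.41 in pool 1 and 3.67 in pool 2, and that from macrophages 2.99 and 2.004. With DESeq2 the calls against epithelial-like cells (ln difference 1.77) and VLMC (3.09) were lost, the latter also with a mitochondrial limit of 10% (2.28). Against T-cell like cells and endothelia, with no UMI, they were at least 24.6-fold and 6.97-fold higher, taking 3 UMIs over the type as the floor. Against VLMC the ratio of 20.7 rests on 1 UMI and has a counting interval of 3.69 to 819.

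Some of the *Slc1a3* outside pituicytes was above the free RNA level. Macrophages had 16 UMIs where free RNA accounts for an expected 0.70. All 16 were in the cluster microglia a, in 15 of its 69 cells (21.7%, interval 12.7 to 33.3), and 0 of the 26 cells of microglia b had one, which allows a share of up to 11.5%. The difference between these clusters was not tested. In IL cells 28 UMIs were counted against an expected 1.93, in 16 of 148 cells, and 2 of those cells held 12 of the UMIs. Doublets were not removed, and their part in these UMIs was not tested.

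*Slc1a2* (chromosome 2, 102658659 to 102790784, plus strand) was at 72.1 and 126.2 CPM in pituicytes. These cells held 49 of its 54 UMIs. IL cells had 3 UMIs, VLMC had 2 UMIs in 1 cell of pool 2, and the other 4 types had none. The VLMC sum of pool 2, at 132.5 CPM, overlapped pituicytes, and no other type did. Pituicytes were called higher than the mean of the other types (ln difference 3.42 ± 0.59 SE), also without the filter on low counts. No p is given, because *Slc1a2* passed that filter through 1 sum of pituicytes and 1 of VLMC, where it is high. Singly, they were called higher than IL cells, with a ratio of 17.7 and a counting interval of 5.72 to 88.9. No member was called lower than in IL cells, against 6.08% of all genes. Pituicytes were at least 6.56-fold above macrophages, 2.81-fold above T-cell like cells and 2.62-fold above epithelial-like cells, all 3 called, of which the call against macrophages was lost with DESeq2 (ln difference 3.90). Endothelia had too few UMIs for a bound, and neither endothelia nor VLMC gave a call.

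*Glul* (chromosome 1, 153899944 to 153909723, plus strand) had the opposite order. Its level in pituicytes was 46.7 and 67.1 CPM, against 2002 and 1987 CPM in VLMC, 569.4 and 490.7 CPM in epithelial-like cells, 282.0 and 379.9 CPM in macrophages and 617.0 and 160.2 CPM in endothelia. All 4 of these types lay above both pituicyte pools. IL cells, at 60.4 and 76.1 CPM, overlapped pituicytes, and T-cell like cells had 2 UMIs. Pituicytes were thus called lower than the mean of the other types (ln difference -1.44 ± 0.32 SE, adjusted p = 0.000105).

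Taken singly, *Glul* was 34.8-fold higher in VLMC than in pituicytes (adjusted p = 1.52e-25), 8.91-fold in epithelial-like cells (1.84e-09), 6.60-fold in endothelia (0.00465) and 5.87-fold in macrophages (4.49e-08). In VLMC 44 of the 47 UMIs were in 6 cells without the VLMC marker *Lum*, and 35 were in 2 of these cells. Without the 6 cells the call against VLMC was lost (ln difference -2.08). The share of all genes called lower in pituicytes was 2.77% against VLMC, 5.72% against epithelial-like cells, 5.54% against endothelia and 12.5% against macrophages. Endothelia rest on 9 UMIs, and the ln difference of pituicytes from them was -2.56 in pool 1 and -0.86 in pool 2. The call against them was lost with TMM normalization, at an ln difference of -1.26. With a mitochondrial limit of 10% the call against epithelial-like cells (ln difference -1.17) and that against endothelia were lost. Within macrophages, *Glul* was at 458.9 CPM in microglia a and at 78.6 CPM in microglia b, pooled over both libraries. It was found in 36 of 69 cells of the former, 8 of them among the 15 with *Slc1a3*, and in 5 of 26 cells of the latter. Only 12.3% of the 228 *Glul* UMIs were in pituicytes.

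The pathway around these 3 genes was described with 16 genes of glutamate and glutamine handling, of which 7 were tested. Apart from *Slc1a3*, *Slc1a2* and *Glul* none was called, and the median ln difference of the 7 was 0.29 (with the floor -0.11). *Slc38a2*, a glutamine transporter, had 102 UMIs in pituicytes at 297.0 and 126.2 CPM, with an ln difference of -0.10. Of the 9 genes that were not tested, *Slc38a3* had 24 of its 27 UMIs in pituicytes and *Slc1a1* (glutamate transporter EAAC1) 15 of its 17. Pituicytes held a smaller part of others, with 13 of 27 UMIs of *Slc1a4*, 20 of 51 of *Glud1* and 8 of 26 of *Got1*. They also held 6 of 15 UMIs of *Slc1a5*, 1 of 5 of *Slc7a11* and the 1 UMI of *Slc1a6*. *Slc38a5* had no UMI in any kept cell.

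*Aldoc* (chromosome 11, 78322968 to 78327781, plus strand) was at 407.4 and 359.0 CPM in pituicytes and at 1398 and 626.0 CPM in epithelial-like cells. Both pools of epithelial-like cells lay above pituicytes, and all pools of the other 5 types lay below them. IL cells had 74.7 and 100.2 CPM, macrophages 90.2 and 9.3 CPM, VLMC 2 UMIs, and T-cell like cells and endothelia none. Pituicytes were called higher than the mean of the other types (ln difference 2.62 ± 0.37 SE, adjusted p = 4.99e-11; 3.22 in pool 1 alone and 2.77 in pool 2 alone). Pooled levels were 4.41-fold those of IL cells and 8.35-fold those of macrophages, and at least 10.7-fold and 3.04-fold those of T-cell like cells and endothelia, all called, of which the call against IL cells was lost with DESeq2 (ln difference 1.39). The ln difference from macrophages was 1.497 in pool 1 and 3.54 in pool 2.

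Against epithelial-like cells, *Aldoc* in pituicytes was lower by an ln difference of -0.86 ± 0.25 (SE, adjusted p = 0.0107), which is under the limit on size and was not called. The gene was found in 19 of the 23 epithelial-like cells (82.6%, interval 61.2 to 95.0) with at most 8 UMIs in a cell. Its relative *Aldoa*, the aldolase of most tissues, had 182 UMIs in pituicytes at 390.4 and 355.1 CPM and was not called (ln difference 0.38 ± 0.21 SE). In single pituicytes *Slc1a3* and *Aldoc* were found together in 74 cells, *Slc1a3* without *Aldoc* in 69, *Aldoc* without *Slc1a3* in 23 and neither in 30.

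*Aldh1l1* (chromosome 6, 90486427 to 90600203, plus strand) had 4 UMIs in the whole of the kept cells, all in pituicytes, at 12.7 CPM in pool 1 and 3.9 CPM in pool 2. The 4 cells had a median of 3775.5 UMIs, well above the pituicyte median of 2055.5. Its level was too low for the filter on low counts and near that of the floor of 3 UMIs. From the 8 aldolase and aldehyde dehydrogenase genes that were followed, 3 were tested and 2 were called higher, *Aldoc* and *Aldh2*, against 12.1% of all genes tested. Without the filter 3 of 7 were called higher, against 5.48% of all genes. *Aldh2*, a mitochondrial aldehyde dehydrogenase, was at 203.7 and 197.3 CPM in pituicytes (ln difference 1.29 ± 0.33 SE, adjusted p = 0.00105).

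No filament gene was called against the mean of the other types. *Vim* (chromosome 2, 13573927 to 13582826, plus strand) was at 114.6 CPM in pool 1 and 43.4 CPM in pool 2 of pituicytes, so that the pools differed more than 2-fold. Levels were 455.1 and 206.3 CPM in T-cell like cells, 169.2 and 92.7 CPM in macrophages, 176.3 and 160.2 CPM in endothelia, 155.3 and 101.5 CPM in epithelial-like cells, 117.8 and 66.2 CPM in VLMC and 10.7 and 24.0 CPM in IL cells. Both pools of T-cell like cells and endothelia lay above pituicytes, both pools of IL cells lay below, and the other 3 types overlapped.

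The *Vim* difference from the mean of the other types was -0.29 ± 0.30 on the ln scale (SE, adjusted p = 0.650). Singly, pituicytes were called higher than IL cells (ln difference 1.47 ± 0.40 SE, adjusted p = 0.0016) and lower than T-cell like cells (-1.51 ± 0.33 SE, adjusted p = 5.74e-05), in which 9.27% of all genes were called lower in pituicytes. With 1 pool at a time the difference from IL cells was 0.57 in pool 2 and 2.27 in pool 1. The call against IL cells was lost with DESeq2 (ln difference 1.45) and with a mitochondrial limit of 10% (1.40), and that against T-cell like cells with DESeq2 (-1.39). All 25 *Vim* UMIs of macrophages were in 4 of the 26 cells of microglia b, 14 of them in 1 cell, and none of the 69 cells of microglia a had one, which allows a share of up to 4.35%.

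*Nes* (chromosome 3, 87971078 to 87980451, plus strand) had 17 of its 28 UMIs in pituicytes, at 38.2 and 31.6 CPM. Endothelia were at 88.1 and 240.2 CPM, above both pituicyte pools, with a UMI in 4 of 13 cells. IL cells had no *Nes* UMI among 530811, so that pituicytes were at least 6.15-fold higher, and the contrast was called (adjusted p = 0.000863). T-cell like cells and VLMC also had none, but their sums were too small for a bound. The contrast with the mean of the other types gave 1.54 ± 0.66 on the ln scale (SE, adjusted p = 0.102).

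*Gfap* (chromosome 11, 102887336 to 102900912, minus strand) had 7 UMIs in kept cells, 6 of them in pituicytes and 1 in a macrophage. The 6 were in 6 cells, 2 of pool 1 and 4 of pool 2, at 8.5 and 15.8 CPM, where free RNA accounts for an expected 0.17 UMIs. All 6 cells also had *Slc1a3*. The gene was at 6.3 CPM in the 157608 barcodes of pool 1 with 1 to 50 UMIs against 12.3 CPM in pituicytes, pooled over both libraries. It was at least 2.17-fold higher in pituicytes than in IL cells by the floor of 3 UMIs and did not pass the filter on low counts.

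Of 17 genes of intermediate filaments and their linkers, the 3 members among them, 5 were tested and none was called with edgeR scaled to total UMIs. With TMM normalization 1 of the 5 was called higher, *Nes*, whose adjusted p was 0.102 before. The median ln difference of the 5 was -0.29 (with the floor -0.75). *Des*, *Krt19*, *Nefh*, *Nefl* and *Prph* had no UMI in pituicytes. *Synm*, the partner of desmin and vimentin in filaments, had 5 UMIs there. *Lmna*, the lamin of the nuclear envelope, was the most abundant after *Vim* with 18 UMIs (29.7 and 43.4 CPM, ln difference 0.29). *Krt8* and *Krt18*, also tested, had 2 of their 55 and 1 of their 62 UMIs in pituicytes. Their SEs of 1.34 and 10.5 were above their differences (-0.34 and -1.05), so that the missing calls do not show equal levels.

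*S100b* (chromosome 10, 76253853 to 76261159, plus strand) had no UMI in the 489135 of pituicytes. Free RNA alone would give an expected 0.57. VLMC had 40 of its 42 UMIs, at 1178 CPM in pool 1 and 1987 CPM in pool 2, and IL cells and epithelial-like cells had 1 each. VLMC were thus at least 276-fold above pituicytes, and no p is given because *S100b* passed the filter through VLMC alone. Against the mean of the other types no difference was called, but the SE of 3553 was far above the ln difference of -1.76. That contrast could not have called *S100b*, and it says nothing about its level.

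The 40 UMIs came from 6 of the 11 VLMC, 2 cells of pool 1 and 4 of pool 2, with 2 to 18 UMIs each. None of these 6 had a UMI of *Lum*, which encodes lumican and is a defining marker of VLMC, whereas the other 5 had 5 to 28 *Lum* UMIs and no *S100b*. The split by *Lum* was made after the values were seen. The 6 cells held 440 UMIs of 6 oligodendrocyte markers, of which 2 cells had 160 and 271, while the 5 cells with *Lum* held 1. They also held 44 of the 47 *Glul* UMIs of VLMC. One of them had 24 UMIs of oligodendrocyte precursor markers, 6 of which were *Pdgfra*. Of the 6 cells, 4 also had 3 to 8 UMIs of the 6 VLMC markers, 24 in all. *Pdgfra* is in both marker lists. In the cell with the precursor markers, the VLMC marker UMIs were the same 6 of *Pdgfra*. Without the 6 cells *S100b* had too few UMIs to be tested, and no member was called against VLMC, of which 5 cells with 6429 UMIs then remained (ln difference -2.08 ± 0.85 SE for *Glul*).

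**Figure D3:**
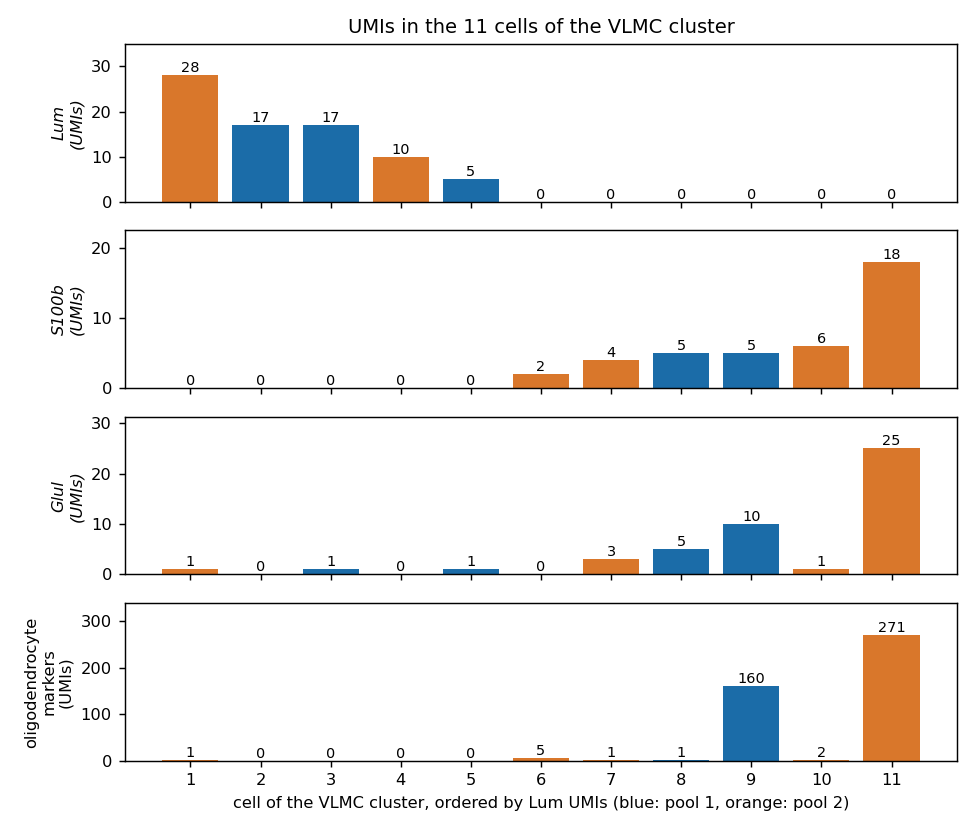
UMIs of *Lum*, *S100b*, *Glul* and of 6 summed oligodendrocyte markers (y axes, from top to bottom) in each of the 11 cells of the VLMC cluster (x axis, ordered by *Lum*), with pool 1 in blue and pool 2 in orange. The 5 cells with *Lum* had no *S100b*, and the 6 cells without *Lum* had 2 to 18 UMIs of it.

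The plot of single VLMC shows that all *S100b* UMIs of this cluster were in cells without *Lum*, whereas *Glul* was found in 3 of the 5 cells with *Lum* (466.6 CPM) and in 5 of the 6 without (2564 CPM), 2 of which held 35 of the UMIs. Of the 10 S100 genes that were followed, 8 were tested, with a median ln difference of -1.54 (with the floor -1.95). Over all genes tested, 12.1% were called higher in pituicytes and 1.4% lower. Of the 8, none was called higher and 3 were called lower. These were *S100a10* (ln difference -3.13), *S100a6* (-2.23) and *S100a11* (-1.70), S100 proteins found in many cell types. As with *S100b*, the fit could not have called *S100a4* (-1.38, SE 535). *S100a1* had 68 UMIs in pituicytes at 127.3 and 149.9 CPM (ln difference 0.13) and *S100a16* 61 UMIs at 63.7 and 181.5 CPM (0.93), neither called.

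*Aqp4* had 2 UMIs in pituicytes, both in pool 2 (0 and 7.9 CPM). Epithelial-like cells had 9 UMIs in 6 of 23 cells (26.1%, interval 10.2 to 48.4), and all 6 cells were of pool 2, at 152.3 CPM against 0 in pool 1. The 19317 UMIs of pool 1 in this type are few, and the floor of 3 UMIs is then high. No other type had a UMI. Of the 6 epithelial-like cells with *Aqp4*, 5 had *Aldoc* and 4 had *Glul*. The gene did not pass the filter on low counts. Without the filter all 10 members were fitted, and 2 were called lower in pituicytes than in epithelial-like cells, against 1 with it. Of all genes, 1.83% were called lower in that contrast without the filter and 5.72% with it.

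Among 12 genes of water channels and of the complex that anchors them, 5 were tested, with a median ln difference of 1.13 (with the floor -0.18). Of the 5, 2 were called higher in pituicytes, against 12.1% of all genes tested. These were *Mlc1* (186.7 and 157.8 CPM, ln difference 4.12), a membrane protein of astrocyte end-feet, and *Dtna* (123.1 and 252.5 CPM, ln difference 3.47), which encodes the dystrobrevin of the anchoring complex. For both no p is given, because the pools of pituicytes alone were enough to pass the filter on low counts. Without the filter 2 of the 12 were called higher, against 5.48% of all genes. *Aqp11*, another aquaporin, had 13 of its 20 UMIs in pituicytes. *Kcnj10*, the potassium channel that shares the end-feet with aquaporin 4, had 4 UMIs in pituicytes.

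Beyond the 10 genes, 45 others that mark astroglia were followed. Of the 32 that were tested, 20 were called higher in pituicytes and none lower, against 12.1% and 1.4% of all genes tested. The fit could not have called *Id3* (ln difference -3.19, SE 7855) or *Ednrb* (-1.18, SE 128) lower, since the SE was far above the difference. The lack of lower calls therefore says nothing about these genes. Their median ln difference was 2.16 (with the floor 1.03). Genes could pass the filter on low counts through pituicytes themselves. Without the filter 21 of the 45 were called higher and none lower, against 5.48% and 0.32% of all genes. The largest fitted differences were those of *Slc4a4* (5.43), a bicarbonate transporter, *Bcan* (5.37), which encodes the matrix protein brevican, *Htra1* (4.98), a secreted protease, *Cldn10* (4.64), a claudin, *Mlc1* (4.12) and *Sox9* (4.03), a transcription factor of glia. Pituicytes held 239 of 241 UMIs of *Slc4a4*, 284 of 291 of *Bcan*, 102 of 103 of *Htra1* and 463 of 471 of *Cldn10*. With so few UMIs elsewhere, the sizes and their order depend on the prior count of edgeR. *Gja1*, the astrocyte connexin, was at 623.8 and 773.2 CPM in pituicytes (3.91) but is also 1 of the markers that name them. *Apoe* and *Cst3*, both in over 90% of pituicytes, had adjusted p-values of 2.94e-07 and 2.06e-05 but differences of 0.88 and 0.74, under the limit on size.

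**Figure D4:**
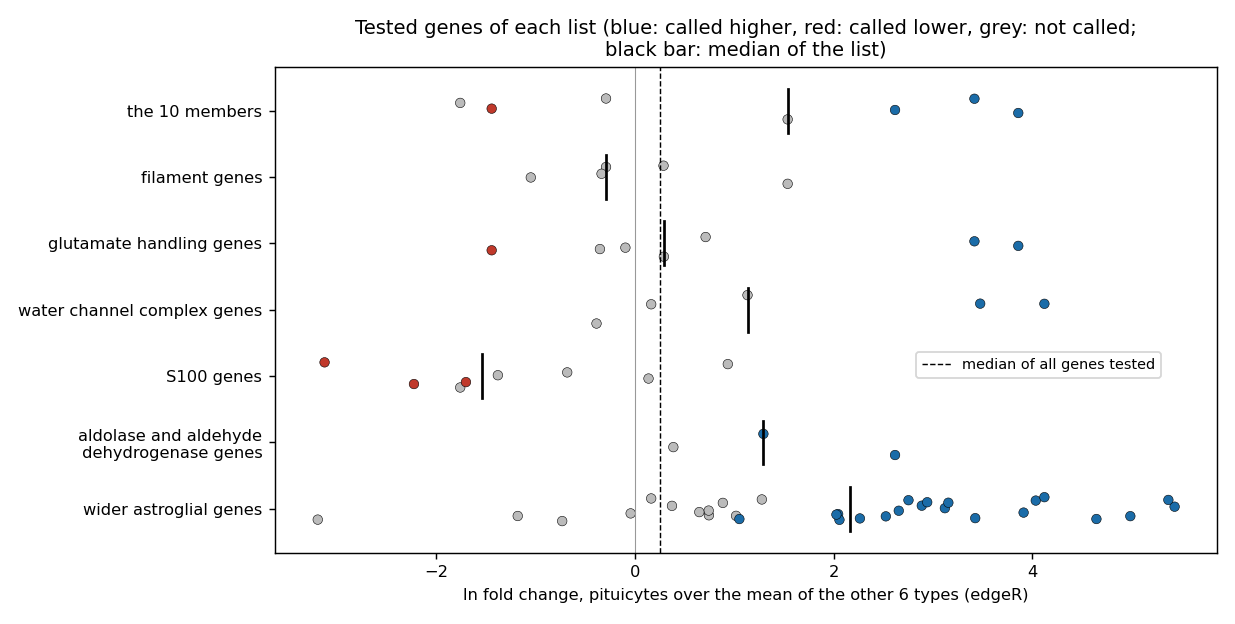
Fitted ln difference of pituicytes from the mean of the other 6 types (x axis) for each tested gene of the 7 lists (rows), with genes called higher in blue, called lower in red and not called in grey. The black bar is the median of a list and the dashed line the median of all genes tested, 0.25. The wider astroglial genes lie mostly to its right, with 20 of 32 called higher, against 12.1% of all genes tested.

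The plot of differences by list holds tested genes alone. Several astrocyte genes were nearly without UMIs in pituicytes, as *Gfap* and *S100b* were. *Fabp7*, *Gpc5*, *Id3* and *Slc6a11* had none, where all kept cells together had 1, 3, 46 and 1 UMIs of them. A further 9 of the 45 had 1 to 5 UMIs in pituicytes. Among them were *Gjb6* (1 of 2 UMIs), the second astrocyte connexin, and *Fgfr3* (2 of 4 UMIs). Others of them were *Tril* (2 of 13 UMIs), *Kcnj10* (4 of 16) and *Ednrb* (3 of 58), found mostly outside pituicytes, as was *Id3*. Of these genes of the wider list *Id3*, *Kcnj10* and *Ednrb* were tested, and none was called. *Fabp7*, *Gpc5*, *Slc6a11*, *Gjb6* and *Fgfr3* were nearly absent from every type, so that their counts do not set pituicytes apart. Of 6 markers of parenchymal astrocytes, 40 UMIs were found in pituicytes, and 34 of these were *Slc7a10*, an amino acid transporter, with no UMI in any other kept cell. That gene was singled out after its values were seen.

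The last comparison asked whether pituicytes a, b and c, the 3 clusters into which the authors divided these cells, differ in the 10 genes. No member passed the test. The clusters held 87, 55 and 54 cells, with a median mitochondrial share of 9.90%, 17.0% and 20.7% and a median of 2214, 1452 and 2782 UMIs. The fit of 6 sums had 2764 genes, of which 5 were members. In 15 tests by edgeR none of them was called, and none had an unadjusted p under 0.05, the smallest being 0.136. DESeq2 also called none of the 15 and gave none such an unadjusted p. Few genes were called at all, 0.0362% lower in a than in b, 0.109% lower in a than in c and 0.0362% higher in b than in c. In simulated data for a against b, with 1 spread for all genes, 55% of 4-fold changes were found. Of 2-fold changes 1.01% were found, but a 2-fold change lies under the limit on size of the call. The simulation therefore cannot say how well 2-fold differences between the clusters would be detected.

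**Figure D5:**
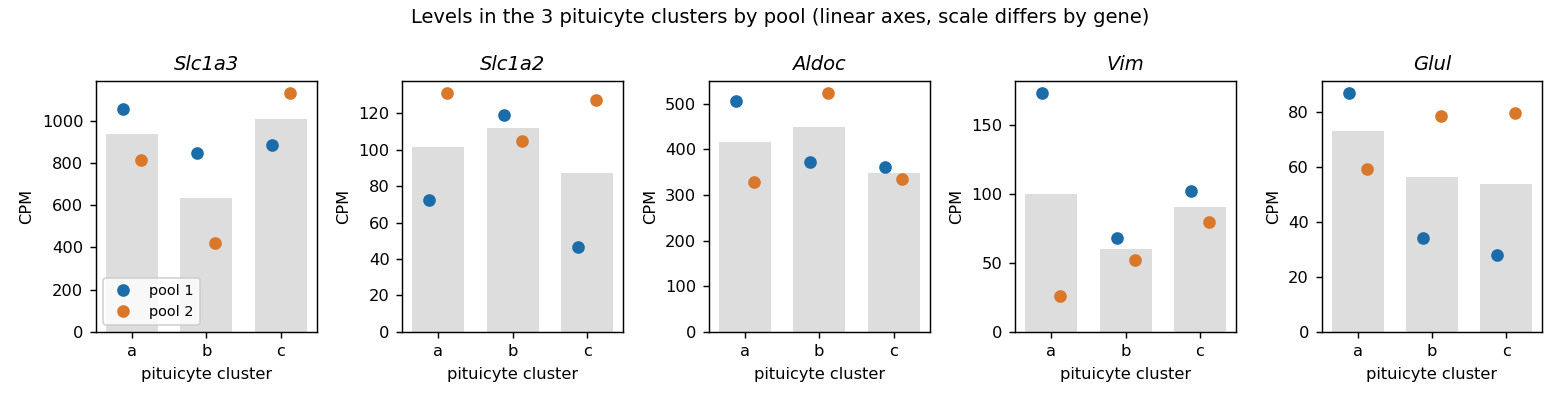
Level in CPM (y axes, linear, scaled per gene) of the 5 members that were tested within pituicytes, in clusters a, b and c (x axis), with 1 point per pool and a grey bar at the mean of the 2 pools. In every panel the pools of cluster a overlap those of b and of c, and *Slc1a3* ran from 419.2 CPM in a pool of b to 1131 CPM in a pool of c.

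*Slc1a3* was at 1056 and 812.9 CPM in a, 848.6 and 419.2 CPM in b and 882.8 and 1131 CPM in c, and the plot of the pituicyte clusters shows that a overlapped both b and c, while b lay below c. The ln difference of b from c was -0.43 ± 0.28 (SE) and that of a from b 0.35 ± 0.28 (SE). Cells with a UMI made 79.3% of a, 56.4% of b and 79.6% of c, but 57.5%, 47.3% and 55.6% after thinning, b being the shallowest. *Aldoc* was at 506.4 and 327.8 CPM in a, 373.4 and 524.0 CPM in b and 362.4 and 334.5 CPM in c. *Slc1a2* had 25, 11 and 13 UMIs, *Vim* 16, 6 and 16 and *Glul* 15, 5 and 8 in a, b and c. The rare genes were spread over the clusters too, with *Gfap* in 4 cells of a and 1 each of b and c, *Nes* in 7, 3 and 6 cells, and *Aldh1l1* in 2 cells of a and 2 of c.

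The genes whose pattern over the 14 sums was most like that of a member were listed by the correlation of log2(CPM + 100), as a description. The points share libraries and their depth. For *Slc1a3* they were *Deptor*, *Ppp1r1b* and *Cysltr1* (Pearson r of 0.96, 0.95 and 0.94), for *Slc1a2* *Ptprz1*, *Mrc2* and *Tmem178b* (0.97, 0.97 and 0.95) and for *Aldoc* *Gsta4*, *Dkk3* and *Ccdc125* (0.95, 0.94 and 0.94). For *Glul* they were *Rab6b*, *Tmem64* and *Ppp1r14a* (0.88, 0.87 and 0.87), and for *Vim* *Ppia*, *Rpl28* and *H2-Q7* (0.88, 0.84 and 0.84). The patterns of the other members were not compared, since each had under 50 UMIs.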

How the data were processed

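Single cells of 2 pools were analysed. For each pool the authors deposited whole UMI counts of genes by barcode, which Cell Ranger made on a prebuilt mm10 reference and not normalized, and 1 table of cluster means that pools both libraries, linear and scaled to 10000 per cell. Processing notes of the submitters name Cell Ranger 2.1, STAR 2.5.1b and Seurat 2.3. Cells with over 1000 and under 10000 UMIs, over 400 and under 5000 genes and a mitochondrial share under 25% were kept, among the 1500 barcodes with most UMIs per pool. Of these 1500 barcodes, 4 occurred in both pools, and whether any of them was a kept cell was not examined. The authors' cluster of each cell was recovered by solving its non-negative weights in the 11 deposited means, where the own weight was at least 0.981. Of 15025 genes, 349 had a deposited mean more than 0.05 per 10000 from that of the recovered cells. Doublets were kept.

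Counts summed per pool and type (14 sums) were tested with edgeR 4.0.16 (quasi-likelihood, R 4.3.3), scaled to total UMIs as the study scales cells, after filterByExpr (min.count 5, min.total.count 15), with 7 residual degrees of freedom and p-values adjusted by Benjamini-Hochberg over all genes tested. Clusters a, b and c used 6 sums and 3 residual degrees of freedom. In simulated data for pituicytes against the mean of the other types, 89.5% of 95 genes changed 4-fold were found, and 12.5% of 72 changed 2-fold. A 2-fold change lies under the limit on size, so that its share found follows from that limit. The simulation used 1 spread for all genes. Types of a pool share mice and library, which pairs the sums. The pool differences of 2 types correlated across genes between -0.03 and 0.14 (median 0.02, 21 pairs of types). The profile of free RNA came from pool 1 barcodes holding 1 to 50 UMIs, and its amount from *Pomc* counted in immune cells. Positions are those of GENCODE on GRCm38, the build of the counts. The text names all 10 members, the called genes of each wider list (at most 6 by size), and the 3 most similar genes, with others named after their values were seen. The members and lists were chosen with earlier results of these data known. Alternatives were TMM, DESeq2 1.42.0, no filter, a pool block, single pools, another clustering (Seurat 5.3.0), a mitochondrial limit of 10%, subtraction of free RNA, all 11 clusters, and, chosen after the data were seen, VLMC with *Lum* alone and scaling without mitochondrial UMIs.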

Additional observations from a re-analysis of the deposited data

Results flagged for a closer look

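The members were also counted in barcodes that the comparisons did not use, because they lay outside the limits for cells. No cell type could be given to these barcodes, and counts over 3 UMIs are given. The 83 barcodes that failed the mitochondrial limit alone held 69 UMIs of *Slc1a3* (454.2 CPM), 35 of *Aldoc* (230.4 CPM), 13 of *Slc1a2*, 6 of *Glul*, 6 of *Nes* and 5 of *Vim*, and none of *Gfap* or *Aqp4*. The remaining barcodes of the 1500 of each pool held 184 UMIs of *Aldoc*, 160 of *Slc1a3*, 135 of *Glul*, 48 of *Vim*, 17 each of *Nes*, *S100b* and *Slc1a2* and 5 of *Aqp4*. The 157608 barcodes of pool 1 with 1 to 50 UMIs held 199 UMIs of *Aldoc*, 154 of *Glul*, 121 of *Slc1a3* (63.9 CPM), 74 of *Vim*, 52 of *Nes*, 39 of *S100b*, 30 of *Slc1a2* and 12 of *Gfap*. *S100b*, without a UMI in pituicytes, was at 20.6 CPM there and *Glul* at 81.4 CPM, the latter above its pituicyte level of 57.2 CPM.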

How the results depend on the processing

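With 2 pools, leaving one out leaves no residual degrees of freedom, so that single pools give values without a test. All 26 single differences that were called kept their direction in both pools, as did every one of them that could be fitted under the other alternatives. Of the 7 members tested, 4 were called against the mean of the other types, and between 3 and 5 under the alternatives except with a mitochondrial limit of 10%, where 2 of 5 were called. Of 42 member and type pairs 22 were called, 16 higher and 6 lower, and without the filter 23 of 60. In DESeq2 12 of the 34 with an adjusted p were called, and 13 of 30 with the limit of 10%. Of all genes, 1.18% to 16.4% per type were called higher and 2.77% to 12.5% lower. In DESeq2 these ranges were 0.355% to 5.94% and 1.93% to 7.27%. With the limit of 10% they were 1.52% to 13.7% and 3.3% to 12.96%. The 22 include *S100b* against VLMC and calls of *Slc1a2*, which passed the filter through types where they are high. Over all genes, DESeq2 calls higher and lower against IL cells also fell, from 486 and 274 to 144 and 87. TMM shifted the median log2 difference of all genes from 0.36 to 0.59. *Glul* against the mean was not called when cells were clustered again without the members (ln difference -0.92) or with the limit of 10% (-1.08). The new clustering gave 5 types, so that its mean left out endothelia and VLMC as types. Its cluster taken as epithelial-like held 22 epithelial-like, 13 endothelial and 7 VLMC cells, and its value is not that of the same comparison. Fitting the replicate block left 4 members called against the mean, 22 pairs, 0 of 15 tests within pituicytes and 20 wider astroglial genes, and it changed no call of a member. The 20 wider genes called higher became 14 with DESeq2, which called 1 lower, against 4.77% and 1.6% of all genes. With the limit of 10% they became 14 of 24 tested, against 8.22% of all genes. The share of all genes called higher in the main fit was 12.1%. Of pituicytes, thinning to 1000 UMIs left 1.02% with *Gfap*, 6.12% with *Vim*, 3.06% with *Nes*, 54.1% with *Slc1a3*, 8.67% with *Slc1a2*, 4.59% with *Glul* and 25.5% with *Aldoc*. The limit of 10% kept 49 pituicytes, 45 of cluster a, 1 of b and 3 of c. Results with that limit therefore rest on fewer cells and almost wholly on cluster a. Of the 49 cells 18.4% had *Glul*, against 12.8% of all 196 pituicytes. Whether these shares differ beyond counting error, and from what cause, was not tested. Depth limits *Gfap*, *Aqp4*, *Aldh1l1* and *Nes*, and VLMC and endothelia as types.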
